A study of Mus musculus with 2 samples.

Results

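Prostaglandins and leukotrienes are lipid signals made from arachidonic acid. Transcripts of 10 genes of this pathway, of 27998 genes in the deposited lists, were followed across the cells of injured mouse muscle: the cyclooxygenases Ptgs1 and Ptgs2, the terminal synthases Ptges and Ptgis, the breakdown enzyme Hpgd, the prostaglandin E2 receptors Ptger2 and Ptger4, the lipoxygenases Alox5 and Alox15, and Alox5ap, the partner protein of Alox5. The genes were taken from a list and not ranked by their values, but the list was chosen with earlier results of these data known. All 10 were found by symbol. For each gene, UMI counts (unique transcript tags) were summed over the cells of each deposited cell type label in each library.

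The 2 scRNAseq libraries came from tibialis anterior, a muscle of the lower leg, collected 2 days and 7 days after its fibers were destroyed by notexin, a toxin from snake venom. Each time point had 1 library from 1 mouse, so intervals below cover counting error only, no test between days was possible, and time cannot be told apart from animal or library. The mice were C57Bl/6 by the sample labels and C57BL/6J by the cell annotation, with no other genotype named. Both sample labels give 7 months and female, whereas the cell annotation gives 4 months at day 2, 7 months at day 7 and male for both; Y-linked genes had 6575 and 4856 counts against 5 and 1 of Xist. Dissociated whole muscle was loaded, with no sort. No uninjured sample was analysed here, so no value below is relative to resting muscle.

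At day 2, 3178 labelled cells held 34026345 counts in 24 labels. At day 7, 3196 labelled cells held 27620535 counts in 25 labels. The median counts per cell were 9058.5 and 6583, and label medians ran from 1693 to 26217.5 at day 2 and from 2430 to 12528 at day 7. Kept cells of the libraries shared 1 barcode. Neutrophils were 22.3% of labelled cells at day 2 and 0.313% (10 cells) at day 7, whereas fibro-adipogenic progenitors (FAPs, the connective tissue progenitors of muscle) and tenocytes together were 7.27% and 26.7%. Levels are given as CPM, a gene's counts scaled to the same total of counts in every group of cells, with exact 95% Poisson intervals, and only labels with at least 20 kept cells are ordered.

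Most labels held the markers of their name, but their marker levels differed between days. The summed level of 6 macrophage genes in M1 Macro. was 6059 CPM at day 2 and 57082 CPM at day 7, and 5 FAP genes in FAPs (Pro-remodeling) summed to 8968 and 40995 CPM. A label shared by both days therefore held cells with different marker levels, and the part of this in the comparisons of days was not tested. The T Cells label at day 2 went against its name in part: 17 of its 50 barcodes had 3 or more counts of 5 basophil genes and 0 counts of Cd3e, Cd3d and Cd3g. These barcodes are described on their own near the end, and the ratios of Ptgs2, Ptger4 and Alox5ap in that label are given with and without them. The FAPs (Adipogenic) label at day 2, with 30 cells, held 904 CPM of 5 neutrophil genes against 20.8 CPM in FAPs (Pro-remodeling).

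As background, phospholipases free arachidonic acid from membranes. Cyclooxygenases, the targets of aspirin-like drugs, turn it into prostaglandin H2, from which terminal synthases make prostaglandin E2 or prostacyclin. Ptgs1 is usually made at a steady level, whereas Ptgs2 is induced by injury and inflammatory signals, and Hpgd inactivates prostaglandin E2 by oxidizing it. Of the receptors for prostaglandin E2, Ptger2 and Ptger4 raise cyclic AMP, and prostaglandin E2 is known to stimulate muscle stem cells. Along the other branch, Alox5 with its membrane partner Alox5ap makes leukotriene A4, the parent of leukotriene B4, an attractant of neutrophils, and Alox15 contributes to lipids that end inflammation.

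The windows before the starts of Ptgs2, Hpgd and Ptges are shown because these genes stand at the first step, the breakdown and the last step of prostaglandin E2 synthesis. Each is the 250 bases before the start in RefSeq (GRCm38.p6), written along the gene's strand, and capitals mark matches of GGGCGG (a GC box) on either strand. For Hpgd and Ptges this start differs from that of the GENCODE gene positions given below. The Ptges window lies inside its GENCODE span, and the Hpgd window ends at 56294551, short of a GENCODE start at 56294585.
Ptgs2, chr1:150099781-150100030, plus strand: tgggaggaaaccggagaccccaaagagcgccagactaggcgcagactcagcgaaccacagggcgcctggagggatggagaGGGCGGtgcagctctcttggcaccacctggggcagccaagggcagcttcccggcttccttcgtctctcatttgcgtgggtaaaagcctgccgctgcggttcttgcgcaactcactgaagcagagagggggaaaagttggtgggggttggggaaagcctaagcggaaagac
Hpgd, chr8:56294302-56294551, plus strand: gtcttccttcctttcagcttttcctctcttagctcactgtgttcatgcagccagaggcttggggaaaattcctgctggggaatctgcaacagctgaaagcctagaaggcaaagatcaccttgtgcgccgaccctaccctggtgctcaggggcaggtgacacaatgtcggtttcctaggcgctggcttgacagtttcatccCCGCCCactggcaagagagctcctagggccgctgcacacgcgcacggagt
Ptges, chr2:30903298-30903547, minus strand: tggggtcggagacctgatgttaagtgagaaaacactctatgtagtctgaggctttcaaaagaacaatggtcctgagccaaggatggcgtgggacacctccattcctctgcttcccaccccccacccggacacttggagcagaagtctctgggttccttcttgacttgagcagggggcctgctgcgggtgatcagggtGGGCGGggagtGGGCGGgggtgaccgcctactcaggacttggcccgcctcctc
The RefSeq table matched 7 of the 10 genes and had no entry for Ptgis, Alox5ap and Alox15.

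A total of 6 motifs were searched on both strands of these 250 bases and the 50 after the start: the TATA box TATAAA, the cAMP response element core TGACG, the E-box CACGTG, the AP-1 site TGANTCA, the NF-kB site and the GC box GGGCGG. Ptgs2 matched GGGCGG at -170 to -165, TGACG on the opposite strand at 14 to 18 and CACGTG at 17 to 22 after the start, the last pair overlapping. Ptges matched GGGCGG at -53 to -48 and at -42 to -37. Hpgd matched GGGCGG on the opposite strand at -50 to -45 and TATAAA at 5 to 10 after the RefSeq start, which is still before the GENCODE start. Of 32851 windows of this length, 35.7% held GGGCGG, 20.8% TGACG, 13.6% TATAAA and 7.15% CACGTG. A match describes letters only.

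**Figure D1:**
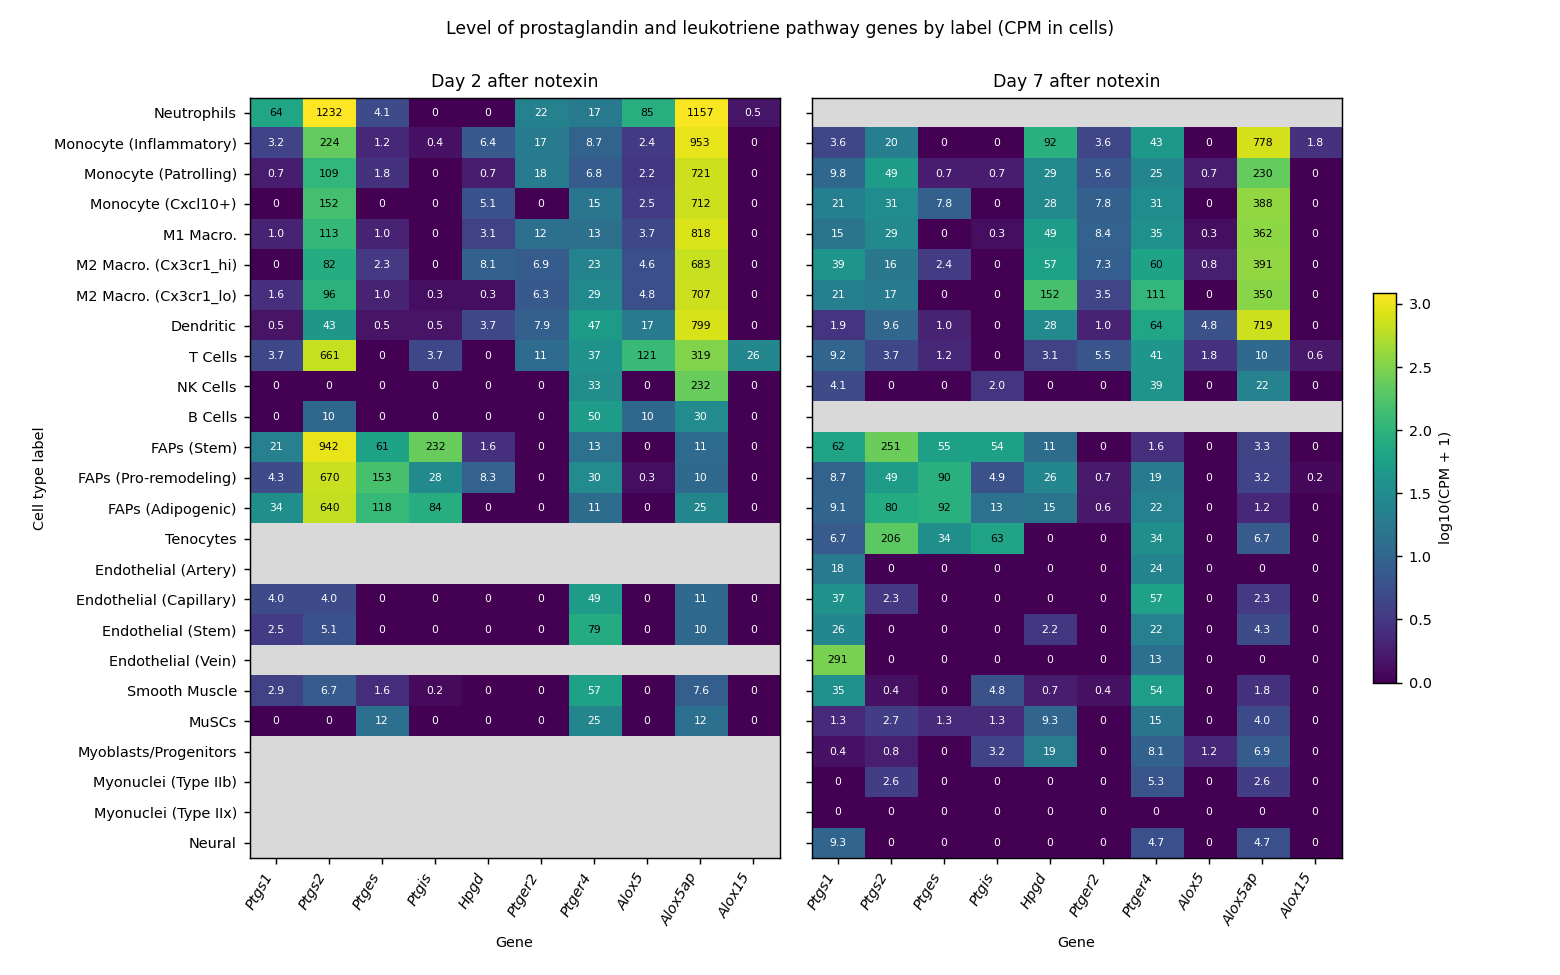
Heat map of the level of each gene (columns) in each label with at least 20 kept cells (rows) at day 2 (left) and day 7 (right). Numbers in the squares are CPM, color is log10(CPM + 1), and gray rows had too few cells; Ptgs2 was highest in Neutrophils (1232 CPM) and FAPs at day 2, and Alox5ap was at 230.4 CPM or more in every monocyte, macrophage and dendritic label at both days.

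Ptgs2 (chr1:150100031-150108227, plus strand) is the inducible cyclooxygenase, and at day 2 it was highest in Neutrophils and FAPs. At day 2 its level was 1232 CPM in Neutrophils (2399 counts, interval 1183 to 1282), 942 CPM in FAPs (Stem) (1196 counts, 889 to 997), 670.0 CPM in FAPs (Pro-remodeling) (2350 counts, 643 to 698) and 640.3 CPM in FAPs (Adipogenic) (228 counts). Neutrophils exceeded FAPs (Stem), and these exceeded FAPs (Pro-remodeling), by more than counting error, whereas FAPs (Pro-remodeling), T Cells (661 CPM, and 5.03 CPM without the barcodes with basophil genes) and FAPs (Adipogenic), neighbors in that order, did not differ from each other. The monocyte and macrophage labels followed, from 224 CPM in Monocyte (Inflammatory) (565 counts) through 152 in Monocyte (Cxcl10+), 113 in M1 Macro. and 109 in Monocyte (Patrolling) to 95.8 and 81.8 in the M2 Macro. labels. Dendritic held 42.8 CPM (92 counts).

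Endothelial (Capillary) and Endothelial (Stem), at 4.04 and 5.07 CPM (5 and 4 counts), and Smooth Muscle, at 6.66 CPM, held almost no Ptgs2. Barcodes with 1 to 100 counts, which hold free RNA rather than cells, had 148 CPM of it. A count was found in 67.2% of Neutrophils thinned to 2000 counts (361 of 537 cells, interval 63.1% to 71.2%, with 171 shallower cells left out), in 44.2% of FAPs (Pro-remodeling) (61 of 138, 35.8% to 52.9%) and in 1.33% of Endothelial (Stem) (2 of 150). Without thinning the shares were 67.8%, 76.8% and 2.00%, at median counts of 2351, 26217.5 and 4882.5 per cell. Ptgs2 was uneven among FAPs: the 10% of FAPs (Pro-remodeling) cells with most counts held 51.4% of that label's total, and 1 cell had 166.

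At day 7 the highest level was 251 CPM in FAPs (Stem) (154 counts, interval 213 to 294), followed by 206 CPM in Tenocytes (92 counts), which did not differ from it beyond counting error. FAPs (Adipogenic) held 79.6 CPM, FAPs (Pro-remodeling) 49.1, Monocyte (Patrolling) 48.9 and M1 Macro. 29.3 CPM. Barcodes with 1 to 100 counts had 29.0 CPM, near M1 Macro. and above both M2 Macro. labels (17.3 and 16.3 CPM). In Tenocytes 54 of the 92 counts were in 1 cell. Days were compared in the 11 labels that held 50 or more kept cells at both days. Of these, 9 had at least 20 Ptgs2 counts, and Ptgs2 was lower at day 7 by more than 2-fold in 9 of these 9, where between 7.86% and 18.5% of all genes were lower by that fold. The log2 ratio of day 7 to day 2 was -3.77 in FAPs (Pro-remodeling) (interval -3.95 to -3.59), -3.50 in Monocyte (Inflammatory) (-4.51 to -2.65), -2.47 and -2.33 in M2 Macro. (Cx3cr1_lo) and M2 Macro. (Cx3cr1_hi), -2.15 in Dendritic, -1.94 in M1 Macro. (-2.26 to -1.64, and -2.60 with the mean over cells) and -1.16 in Monocyte (Patrolling) (-1.55 to -0.78).

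Smooth Muscle had a ratio of -4.17 from 34 counts at day 2 and 1 at day 7. With SoupX values, which subtract free RNA, the ratio was -4.66, from sums of 14.1 and 0.295. Their total of 14.4, beside 35 without SoupX, was under the 20 counts set for a call, so no call was made. The part of free RNA in this label's Ptgs2 was not tested. In T Cells the ratio was -7.48, and it was -0.45 without the 17 barcodes with basophil genes, from 1 and 6 counts, under the 20 needed to compare. Among labels with fewer cells, FAPs (Stem), with 47 and 78 cells, had a ratio of -1.91 and FAPs (Adipogenic), with 30 and 232 cells, one of -3.01 beside 904 and 1.21 CPM of neutrophil genes, whose part in this was not tested. Tenocytes went the other way, with 5 counts in 16 cells at day 2 (31.7 CPM) and 92 in 48 cells at day 7. The summed level of 10 dissociation stress genes was higher at day 7 in 8 of the 9 labels and lower in 1, Smooth Muscle (15811 and 8332 CPM), and the part of dissociation in the Ptgs2 ratios was not tested.

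Of 8563 Ptgs2 counts in labelled cells at day 2, 44.1% were in FAPs and tenocytes, 28.0% in Neutrophils and 24.1% in monocytes and macrophages. Of 917 counts at day 7, 72.6% (interval 69.6% to 75.5%) were in FAPs and tenocytes and 24.1% in monocytes and macrophages. FAPs and tenocytes were 7.27% of the cells at day 2 and 26.7% at day 7. A share of counts follows the number of cells, the total counts per cell and the level in CPM. Median counts per cell at day 2 were 2351 in Neutrophils and 26217.5 in FAPs (Pro-remodeling). Over all labelled cells the level was 252 CPM at day 2 and 33.2 CPM at day 7.

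**Figure D2:**
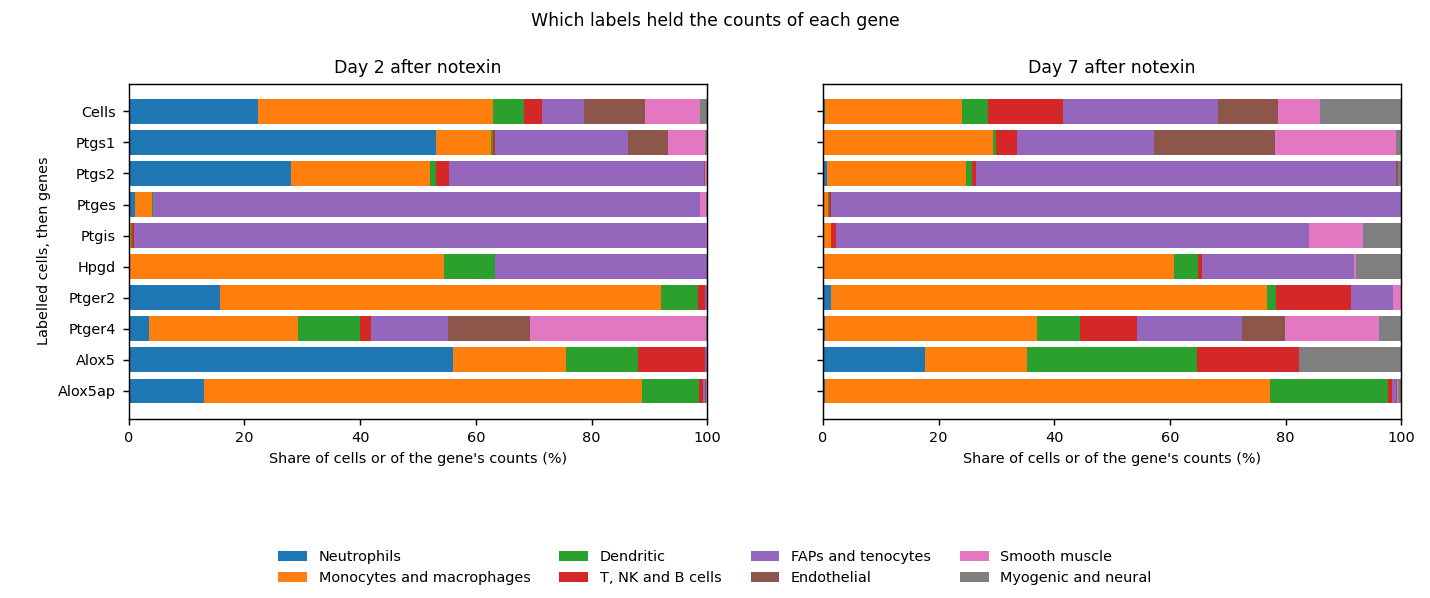
Share (percent, x axis) of labelled cells (top bar) and of the counts of each gene but Alox15 (other bars) held by groups of labels at day 2 and day 7. FAPs and tenocytes held 94.5% and 98.5% of Ptges counts, whereas Neutrophils held 28.0% of Ptgs2 and 56.1% of Alox5 counts at day 2; Alox5 at day 7 rests on 17 counts.

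Ptgs1 (chr2:36230426-36252272, plus strand), the other cyclooxygenase, was also highest in Neutrophils at day 2. They held 125 of its 235 counts (53.2%, interval 46.6% to 59.7%), at 64.2 CPM (53.4 to 76.5), and exceeded the next label, FAPs (Adipogenic) at 33.7 CPM (12 counts), by more than counting error. FAPs (Stem) held 21.3 CPM, and every other ordered label was under 5 CPM. At day 7 the counts were spread over smooth muscle (95 of 452), monocytes and macrophages (133), FAPs and tenocytes (107) and endothelial labels (94).

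Endothelial (Vein), with 21 cells, was the highest label at day 7 at 291 CPM (46 counts, interval 213 to 388), beyond counting error above FAPs (Stem) at 62.0 CPM. Of its thinned cells 47.6% (10 of 21) had a count. M2 Macro. (Cx3cr1_hi), Endothelial (Capillary), Smooth Muscle and Endothelial (Stem) followed at 39.1, 37.2, 35.1 and 25.8 CPM, with no difference between neighbors beyond counting error. Barcodes of 1 to 100 counts held 2.62 CPM at day 2 and 11.3 CPM at day 7.

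Within labels Ptgs1 was higher at day 7 in 5 of 5 with at least 20 counts, while 13.2% to 26.0% of all genes were higher by more than 2-fold in those labels. The log2 ratio was 3.83 in M1 Macro. (7 and 49 counts, interval 2.68 to 5.21), 3.58 in Smooth Muscle (15 and 95 counts, 2.78 to 4.47), 3.20 in Endothelial (Capillary) (5 and 33 counts, 1.83 to 4.91) and 1.02 in FAPs (Pro-remodeling) (15 and 51 counts, 0.16 to 1.95). The last was 0.98 with SoupX values and 0.80 with the mean over cells, both under 2-fold. FAPs (Adipogenic), with fewer cells, went from 33.7 to 9.11 CPM (-1.89) beside 904 and 1.21 CPM of neutrophil genes, whose part in this was not tested. FAPs (Stem), also with fewer cells, went from 21.3 to 62.0 CPM (1.54, 27 and 38 counts). M2 Macro. (Cx3cr1_hi) held 0 and 48 counts, and day 7 was thus at least 11.3-fold higher when 3 counts are set for the 0. Over all labelled cells Ptgs1 had a ratio of 1.24, and with the mean of each cell's CPM in place of the sum it was -0.11. That pooled value includes the Neutrophils of day 2, so it describes the mixture of cells and not a cell type.

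Of the enzymes that take over the cyclooxygenase product, Ptges and Ptgis had most of their counts in connective tissue labels. Ptges (chr2:30889471-30929863, minus strand), the inducible prostaglandin E synthase, had 693 counts at day 2, of which 94.5% (interval 92.6% to 96.1%) were in FAPs and tenocytes, and 741 at day 7, of which 98.5% (97.4% to 99.3%) were. At day 2 it stood at 153 CPM in FAPs (Pro-remodeling) (535 counts), 118 in FAPs (Adipogenic) (42 counts) and 60.6 in FAPs (Stem) (77 counts), and at day 7 at 90.0, 91.7 and 55.4 CPM in the same labels and 33.6 CPM in Tenocytes (15 counts). Neutrophils, the label with the highest Ptgs2, held 4.11 CPM of Ptges at day 2 (8 counts), below the 11.1 CPM of barcodes with 1 to 100 counts. Endothelial labels had 0 counts in thinned cells, 0 of 155 and 0 of 150 at day 2, which allows shares of cells with a UMI at that depth of up to 1.94% and 2.00% (3 counts), and says nothing of cells that express the gene.

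Ptges differed less between days than Ptgs2 in the same cells. In FAPs (Pro-remodeling) its log2 ratio was -0.76 (interval -0.94 to -0.59), under 2-fold, beside -3.77 for Ptgs2. In thinned cells of that label, Ptges was found in 34.1% (47 of 138) at day 2 and 17.0% (84 of 495) at day 7. At day 2 Ptges was found in 34.4% of thinned cells with a Ptgs2 count (21 of 61, interval 22.7% to 47.7%). Without a Ptgs2 count the share was 33.8% (26 of 77, 23.4% to 45.4%). At day 7 the shares were 11.8% (4 of 34, interval 3.30% to 27.5%) and 17.4% (80 of 461, 14.0% to 21.1%). Without thinning, Ptges was found in 96.4% of these cells at day 2. Most zeros in thinned cells there thus came from depth, and these shares cannot decide whether the genes vary together.

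Ptgis (chr2:167191805-167240604, minus strand), which makes prostacyclin, was also a FAP transcript but in another subset. At day 2 FAPs (Stem) held 294 of its 462 counts (63.6%), at 232 CPM (interval 206 to 260), against 84.2 CPM in FAPs (Adipogenic) and 28.2 in FAPs (Pro-remodeling), each step beyond counting error. Ptges, by contrast, was lower in FAPs (Stem) than in the other FAP labels, beyond counting error against FAPs (Adipogenic). The 16 Tenocytes of day 2, too few to be ordered, had 34 counts (215 CPM).

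At day 7 Ptgis was highest in Tenocytes (62.7 CPM, 28 counts) and FAPs (Stem) (53.8 CPM, 33 counts), which did not differ beyond counting error. FAPs (Pro-remodeling) had a log2 ratio of -2.52 (99 and 29 counts, interval -3.17 to -1.91), and FAPs (Stem), under the cell minimum, one of -2.11 (-2.67 to -1.58). Smooth Muscle had 1 count at day 2 and 13 at day 7 (0.196 and 4.80 CPM), the latter near the 4.03 CPM of barcodes with 1 to 100 counts. Endothelial labels held 0 counts at day 2. FAPs and tenocytes held 98.9% of Ptgis counts at day 2 and 81.8% at day 7, when Smooth Muscle held 9.49% and the myogenic and neural labels 6.57%.

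Hpgd (chr8:56294585-56321043, plus strand), which breaks prostaglandin E2 down, differed between days in the opposite direction to Ptgs2 in the labels compared for both. At day 2 it was low in all ordered labels, between 0 and 8.27 CPM, with 90 counts in all, of which 29 were in FAPs (Pro-remodeling), 18 of them in 1 cell. At day 7 it had 702 counts: M2 Macro. (Cx3cr1_lo) held 152 CPM (88 counts, interval 122 to 188), Monocyte (Inflammatory) 91.6 (51 counts), M2 Macro. (Cx3cr1_hi) 57.1 (70 counts), M1 Macro. 49.4 (165 counts), Monocyte (Patrolling) 28.6, Dendritic 27.9 and FAPs (Pro-remodeling) 26.0 CPM (153 counts). The first exceeded the second, and the second the third, beyond counting error. Myoblasts/Progenitors had 19.4 CPM and Smooth Muscle 0.738 CPM, while barcodes with 1 to 100 counts had 10.5 CPM.

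Hpgd was higher at day 7 in 7 of the 7 labels with at least 20 counts, in which 12.7% to 26.0% of genes were higher by more than 2-fold. In M1 Macro. the log2 ratio was 3.99 (21 and 165 counts, interval 3.33 to 4.72), in Monocyte (Inflammatory) 3.85 (16 and 51, 3.02 to 4.76), in Dendritic 2.91 (8 and 29), in M2 Macro. (Cx3cr1_hi) 2.82 (7 and 70) and in FAPs (Pro-remodeling) 1.65 (29 and 153, 1.07 to 2.28). M2 Macro. (Cx3cr1_lo), with 1 count at day 2 and 88 at day 7, had the highest ratio, 8.91, with a counting interval of 6.39 to 14.23, and Monocyte (Patrolling), with 2 and 41, had 5.31. In thinned M2 Macro. (Cx3cr1_lo) cells Hpgd was found in 0 of 241 at day 2, which allows up to 1.24% of cells with a UMI, and 22.8% (23 of 101) at day 7. The macrophage marker list was between 5.98-fold and 12.1-fold higher at day 7 in the monocyte and macrophage labels, beside these ratios, and its part in them was not tested.

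**Figure D3:**
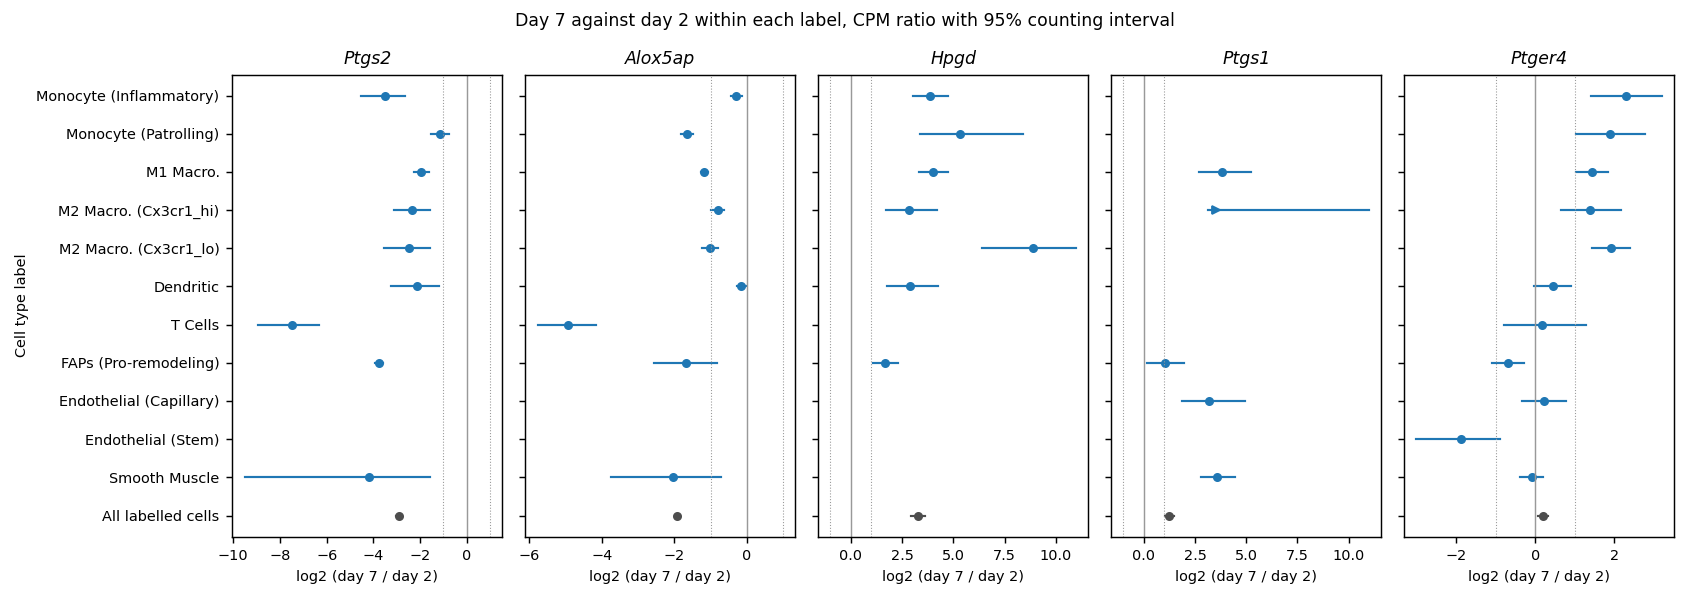
The log2 ratio of CPM at day 7 to day 2 (x axis) in each label with 50 or more kept cells at both days and at least 20 counts of the gene (rows), for 5 genes. Points are ratios, lines 95% counting intervals cut at 11, the triangle a lower bound, and dotted lines mark 2-fold; all Ptgs2 points lie left of -1, all Hpgd and Ptgs1 points right of 1, and Ptger4 points lie on both sides of 0.

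Of the prostaglandin E2 receptors, Ptger2 (chr14:44988195-45003820, plus strand) was mostly a myeloid transcript: at day 2, 76.2% of its 265 counts (interval 70.6% to 81.2%) were in monocytes and macrophages and 15.8% in Neutrophils. Its level was 21.6 CPM in Neutrophils (42 counts), 17.6 in Monocyte (Patrolling) (49 counts), 17.1 in Monocyte (Inflammatory) (43 counts) and 12.4 in M1 Macro. (84 counts), with no difference between neighbors beyond counting error. The FAP and endothelial labels had 0 counts at day 2. It was lower by more than 2-fold at day 7 in 2 of 4 labels, Monocyte (Inflammatory) (log2 ratio -2.25, 43 and 2 counts) and Monocyte (Patrolling) (-1.66, 49 and 8 counts), where 17.4% and 15.5% of all genes were lower, and M1 Macro. had a ratio of -0.57 with an interval of -1.24 to 0.07.

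Ptger4 (chr15:5206661-5244187, minus strand) was found in these cells and more broadly, with counts in 21 of 24 labels at day 2 and 24 of 25 at day 7. At day 2 the highest level was 78.6 CPM in Endothelial (Stem) (62 counts, interval 60.3 to 101). Smooth Muscle (57.0 CPM, 291 counts), B Cells (50.4 CPM, 5 counts), Endothelial (Capillary) (49.3) and Dendritic (47.5) followed. M1 Macro., Monocyte (Inflammatory) and Monocyte (Patrolling) were low, at 12.8, 8.73 and 6.84 CPM, beside 13.1 CPM in barcodes with 1 to 100 counts. By day 7 M2 Macro. (Cx3cr1_lo) was highest at 111 CPM (64 counts, interval 85.3 to 141), beyond counting error above Dendritic at 64.5 CPM.

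Among the 11 compared labels Ptger4 was higher at day 7 in 5, all monocyte or macrophage labels, lower in 1, and within 2-fold in 5. In the first 5 labels 12.7% to 17.0% of all genes were higher by more than 2-fold, and 13.2% were lower in Endothelial (Stem). Barcodes with 1 to 100 counts had 24.8 CPM at day 7, near the 25.1 CPM of Monocyte (Patrolling). The log2 ratios were 2.30 in Monocyte (Inflammatory) (22 and 24 counts, interval 1.41 to 3.21), 1.92 in M2 Macro. (Cx3cr1_lo) (1.44 to 2.40), 1.88 in Monocyte (Patrolling) (1.04 to 2.76), 1.43 in M1 Macro. (87 and 116 counts, 1.02 to 1.85) and 1.39 in M2 Macro. (Cx3cr1_hi) (0.66 to 2.18). Endothelial (Stem) had -1.87 (62 and 10 counts, -3.00 to -0.90). The intervals held 0 in Dendritic (0.44), Endothelial (Capillary) (0.22), Smooth Muscle (-0.09, from 57.0 and 53.5 CPM) and T Cells (0.17, and 0.23 without the barcodes with basophil genes), and FAPs (Pro-remodeling) had -0.68 (-1.08 to -0.28).

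On the leukotriene side, Alox5ap (chr5:149264767-149288153, plus strand) was the most widely shared myeloid member. At day 2 it stood at 1157 CPM in Neutrophils (2254 counts), 953 in Monocyte (Inflammatory) (2402), 818 in M1 Macro. (5539), 799 in Dendritic (1715), 721 in Monocyte (Patrolling), 712 in Monocyte (Cxcl10+), 707 in M2 Macro. (Cx3cr1_lo) and 683 CPM in M2 Macro. (Cx3cr1_hi). FAPs (Pro-remodeling), Endothelial (Capillary) and Endothelial (Stem) held between 10.1 and 10.5 CPM, under the 193 CPM of barcodes with 1 to 100 counts. In thinned cells it was found in 88.4% of Monocyte (Inflammatory) (244 of 276) and 77.8% of Neutrophils (418 of 537), against 2.67% of Endothelial (Stem) (4 of 150).

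The day 7 levels of Alox5ap split the myeloid labels. Monocyte (Inflammatory) and Dendritic stayed at 778 and 719 CPM, with log2 ratios of -0.29 (interval -0.44 to -0.15) and -0.15 (-0.28 to -0.03), and did not differ from each other beyond counting error. M2 Macro. (Cx3cr1_hi), M1 Macro., M2 Macro. (Cx3cr1_lo) and Monocyte (Patrolling) were at 391, 362, 350 and 230.4 CPM, with ratios of -0.80, -1.18, -1.02 and -1.64. Of 9 labels with enough counts, 6 were lower by more than 2-fold, where 7.86% to 18.5% of genes were, and these include FAPs (Pro-remodeling), Smooth Muscle and T Cells, whose day 7 levels were 3.23, 1.85 and 10.5 CPM. The T Cells ratio was -4.93, and 0.06 without the barcodes with basophil genes, from 2 and 17 counts, under the 20 needed to compare.

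Alox5 (chr6:116410077-116461178, minus strand), the enzyme itself, was far narrower than its partner. Of its 294 counts at day 2, 165 were in Neutrophils (56.1%, interval 50.2% to 61.9%; 84.7 CPM, 72.3 to 98.7), 37 in Dendritic (17.2 CPM) and 33 in T Cells (121 CPM), 31 of these in the barcodes with basophil genes. Monocyte and macrophage labels held between 2.16 and 4.76 CPM, near the 2.62 CPM of barcodes with 1 to 100 counts, although Alox5ap was at 683 CPM or more in each of them. Among thinned Neutrophils, Alox5ap was found in 87.7% of cells with an Alox5 count (71 of 81, interval 78.5% to 93.9%). Without an Alox5 count the share was 76.1% (347 of 456, 71.9% to 79.9%), and the difference was not tested.

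At day 7 Alox5 had 17 counts in all labelled cells, 5 of them in Dendritic. It was lower at day 7 in 3 of 3 labels with at least 20 counts: Dendritic (37 and 5 counts, log2 ratio -1.84), M1 Macro. (25 and 1, -3.62) and T Cells (33 and 3, -6.04), where 2 counts at day 2 remained without the barcodes with basophil genes, too few to compare. In these labels 8.44%, 14.6% and 8.90% of all genes were lower by more than 2-fold. The 10 barcodes labelled Neutrophils at day 7, too few to be ordered, held 3 counts, all 3 in barcodes with 3 or more basophil gene counts.

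Alox15 (chr11:70344152-70352031, minus strand) was at the edge of detection, with 8 counts in labelled cells at day 2 and 4 at day 7. At day 2, 7 of the 8 counts were in 5 barcodes of the T Cells label and 1 in a Neutrophils barcode, and each of these 6 had 7 or more basophil gene counts and 0 T cell marker counts. The T Cells level was 25.7 CPM (interval 10.3 to 52.9). M1 Macro., with 0 counts, allows up to 0.443 CPM at day 2, from a floor of 3 counts. Outside the annotation, a barcode that passed the limits on cells held 2 Alox15 counts beside 57 of basophil genes. Another, which failed the limits on cells, held 3 Alox15 counts beside 5 counts of eosinophil genes and 23 of neutrophil genes. Alox15 was under the 20 counts needed for a comparison of days in all labels.

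The 50 barcodes labelled T Cells at day 2 fell into sets with different pathway genes, a division made after their values were seen. A first set of 13 had 160 counts of Mcpt8, a basophil protease, and 0 of the mast cell proteases Tpsb2, Cma1 and Mcpt4. It held 179 of the label's 180 Ptgs2 counts (3667 CPM, interval 3150 to 4245, in 9 of 13 barcodes), 80 counts of Alox5ap in all 13, 22 of Alox5 in 12 and 7 of Alox15 in 5. A second set of 4 had 497 counts of Cma1, 360 of Mcpt4 and 336 of Tpsb2, with 7 of Mcpt8. It held 0 counts of Ptgs2 and Alox15, 9 of Alox5, 5 of Alox5ap and 11 of Hpgds, the prostaglandin D synthase of blood cells, which had 0 counts in the first set.

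The remaining 33 barcodes had 25 counts of Cd3e and 28 of Cd3d, and held 1 count of Ptgs2, 2 of Alox5, 2 of Alox5ap and 0 of Alox15. Each set is a small number of barcodes from 1 library and was not compared with the others by a test. At day 7 the label had 0 barcodes with 3 or more basophil gene counts among 293, so its comparison of days sets different cells side by side.

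**Figure D4:**
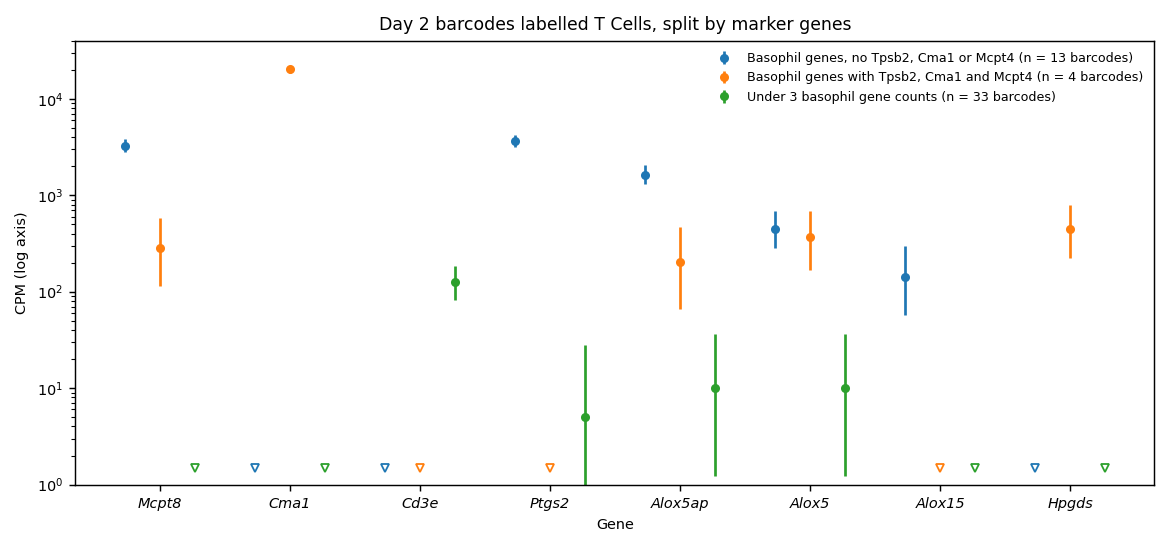
Level in CPM (log axis) of 3 marker genes and 5 pathway genes in the day 2 barcodes labelled T Cells, in sets of 13, 4 and 33 barcodes; bars are 95% Poisson intervals and open triangles at the bottom mark 0 counts. Ptgs2 is at 3667 CPM in the set of 13 and rests on 1 count in the set of 33, Hpgds has counts in the set with Cma1, and Cd3e in the set of 33.

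Counted by label, members past a 2-fold difference stood beside the share of all genes that passed it, and no label is called particular from this. In M1 Macro. 3 of 7 measured members were higher at day 7 and 3 lower, beside 17.0% and 14.6% of 10036 genes. M2 Macro. (Cx3cr1_hi) had 3 of 5 higher and 1 lower (14.7% and 15.6% of genes), and M2 Macro. (Cx3cr1_lo) 2 of 5 in each direction (12.7% and 18.5%). Monocyte (Inflammatory) had 2 of 5 in each direction (13.3% and 17.4%) and Monocyte (Patrolling) 2 of 5 higher and 3 lower (13.8% and 15.5%). In Dendritic 1 of 5 was higher and 2 lower (13.6% and 8.44%).

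Outside the myeloid labels, FAPs (Pro-remodeling) had 2 of 7 members higher, Hpgd and Ptgs1, and 3 lower, Ptgs2, Ptgis and Alox5ap, beside 26.0% and 13.7% of genes. Smooth Muscle had 1 of 4 higher, Ptgs1, and 2 lower (14.1% and 7.86%). Endothelial (Capillary) had 1 of 2 higher and 0 lower (13.2% and 11.1%), Endothelial (Stem) 0 of 1 higher and 1 lower (13.5% and 13.2%), and T Cells 0 of 4 higher and 3 lower (15.8% and 8.90%). Without the barcodes with basophil genes 1 member, Ptger4, was still measured in T Cells, and 0 were lower. Over all labelled cells 2 of 9 were higher and 5 lower, beside 28.3% and 7.49% of 15037 genes. With the mean over cells Ptgs1 and Ptgis (-1.45 to -0.47) were no longer past 2-fold, Ptges (0.40 to 1.16) was, and Ptgs2 went from -2.92 to -3.94 and Alox5 from -3.81 to -4.93. The median log2 ratio of measured members was -0.57 in M1 Macro., where that of all genes was -0.09, and -0.76 in FAPs (Pro-remodeling), where it was 0.22. It was above that of all genes in M2 Macro. (Cx3cr1_hi) (1.39 and -0.14) and Endothelial (Capillary) (1.71 and 0.01), and below it in the other compared labels.

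Another 49 genes of the pathway were counted the same way, to be read beside the shares of all genes just given for each label. In FAPs (Pro-remodeling), for example, 6 of 22 were higher where 26.0% of all genes were. In M1 Macro. 12 of 28 measured genes were higher at day 7 and 5 lower, in Monocyte (Patrolling) 8 of 22 and 3, in Monocyte (Inflammatory) 7 of 20 and 4, in M2 Macro. (Cx3cr1_hi) 6 of 20 and 2, in M2 Macro. (Cx3cr1_lo) 5 of 22 and 4, in FAPs (Pro-remodeling) 6 of 22 and 3, in Smooth Muscle 6 of 18 and 1, in Dendritic 4 of 17 and 2, in T Cells, with all 50 barcodes, 2 of 13 and 3, in Endothelial (Capillary) 3 of 9 and 1, and in Endothelial (Stem) 2 of 6 and 1. Ltb4r1, the high-affinity receptor for leukotriene B4, was lower at day 7 in 5 myeloid labels. It went from 283 to 44.9 CPM in Monocyte (Inflammatory) (log2 ratio -2.66), from 146 to 8.98 CPM in M1 Macro. (-4.02, interval -4.60 to -3.50), from 55.1 to 2.09 CPM in Monocyte (Patrolling) (-4.72), from 58.3 to 1.73 CPM in M2 Macro. (Cx3cr1_lo) (-5.08, 184 and 1 counts) and from 217 to 46.2 CPM in Dendritic (-2.23). Fpr2, a receptor for lipoxin and formyl peptides, had a ratio of -1.82 in Monocyte (Inflammatory).

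Hpgds was higher at day 7 in M1 Macro. (13.7 and 124 CPM, log2 ratio 3.17, interval 2.84 to 3.51), M2 Macro. (Cx3cr1_hi) (3.51), M2 Macro. (Cx3cr1_lo) (2.87) and Monocyte (Patrolling) (2.57). Ltc4s, the leukotriene C4 synthase, went from 2.51 to 25.4 CPM in M1 Macro. (3.34), and Cyp4f18, which inactivates leukotriene B4, had ratios of 1.77 to 3.81 in both M2 Macro. labels and Monocyte (Patrolling). Tbxas1, the thromboxane synthase, had 1.55 in Monocyte (Inflammatory), and Pla2g15, a lysosomal phospholipase, had 2.41 in M2 Macro. (Cx3cr1_hi). In FAPs (Pro-remodeling) the prostaglandin transporter Slco2a1 went from 43.9 to 3.90 CPM (-3.49), whereas Ggt5 and Dpep1, which trim cysteinyl leukotrienes, had ratios of 3.10 and 2.49. Tbxa2r, the thromboxane receptor, had 3.87 in Smooth Muscle (12 and 93 counts).

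Pla2g16, a phospholipase, was higher at day 7 in Endothelial (Stem) (30.4 and 170 CPM, log2 ratio 2.48), Endothelial (Capillary) (1.96), Smooth Muscle (1.55) and T Cells (2.23). Ptges3, a prostaglandin E synthase that also acts as a chaperone partner, had -1.13 in Endothelial (Stem), -0.77 in Endothelial (Capillary) and -0.37 in T Cells, and Akr1b3, an aldo-keto reductase, 0.25 in Endothelial (Capillary). Cysltr1, a receptor for cysteinyl leukotrienes, had -0.92 and the dipeptidase Dpep2 -0.54 in Dendritic, and Ptgr2, a prostaglandin reductase, 1.28 in Smooth Muscle. Cyp4f18 had -4.39 in T Cells, a value that includes the barcodes with basophil genes, as do the others given here for that label.

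Likeness of pattern was described by Pearson r of log2(CPM + 1) over the 29 label-by-day groups with at least 50 kept cells, among 12295 genes with at least 100 counts over these groups. These groups share libraries and differ in depth, so r is a description only. Ptgs2 was most like Emilin2 (r = 0.88), Pygl and Ccl7, Ptges like Twist2 (0.96), Ccbe1 and Mme, and Ptgis like Slc4a4 (0.90), Has1 and Adamtsl1. Hpgd was most like Axl (0.83), Fam49a and Pianp, and Ptgs1 like Dhrs7 (0.79), Zfp652 and Ifit2. Ptger2 was most like Vill (0.94), Pilra and B430306N03Rik, and Ptger4 like Apobec3 (0.82) and Itpripl1.

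For the leukotriene genes the nearest patterns were Aqp9 (0.92), Rab44 and 4833407H14Rik for Alox5, and Spi1 (0.97), Pirb and Lilrb4a for Alox5ap. Among the members themselves, r was highest between Ptger2 and Alox5ap, at 0.86, and lowest between Ptgis and Alox5ap, at -0.46. It was 0.74 between Ptges and Ptgis, 0.67 between Ptger2 and Alox5, and 0.61 between Ptgs2 and Ptger2 and between Alox5 and Alox5ap. Between Ptgs2 and Ptges it was 0.52, between Ptgs2 and Hpgd 0.10 and between Ptgs1 and Ptgs2 0.04. Alox15 was under the count minimum and was not ranked.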

How the data were processed

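Whole-muscle cells of 1 mouse per time point were profiled by droplet scRNAseq. The authors aligned reads to mm10 and deposited UMI counts per gene and barcode from Cell Ranger (3.0.1 in the file headers, 3.1.0 in the submitters' processing notes, which also name Seurat 3.1.5), without normalization. The authors also deposited estimated counts from SoupX, which subtracts free RNA; these served only as an alternative. Cell type labels were the authors' own, made on a larger integrated collection after doublets were removed.

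Of 3537 and 3416 annotated barcodes, 43 and 31 had no label and 329 and 195 failed the limits (750 genes and 1000 transcripts or more, with mitochondrial counts no higher than 30%). Counts were summed per label and library and scaled to CPM. Levels have exact Poisson, shares exact Clopper-Pearson and ratios conditional binomial 95% intervals, which cover counting error only. Days were compared in labels with at least 50 cells in both libraries, for genes with at least 20 counts over both, and a member was counted as higher or lower past a fold of 2. To compare detection, cells were thinned to 2000 counts (seed 11). A count of 0 was set to 3 for bounds. All 10 members are named, with, among the other pathway genes, the 3 with the largest absolute ratio per label at 100 or more counts, and the 3 most alike genes per member, of which 1 is not reported here. The members and lists were chosen with earlier results of these data known. The scripts were tested on simulated data and run in Python 3.11.15 with numpy 2.4.6, scipy 1.17.1 and pandas 2.3.3. Gene positions are from GENCODE on GRCm38.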

Additional observations from a re-analysis of the deposited data

Results flagged for a closer look

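Called barcodes that passed the same limits but are not in the deposited annotation, 680 at day 2 and 477 at day 7, also held pathway transcripts, above the limit that a count of 0 allows. At day 2 their levels were 204 CPM for Ptgs2, 10.7 for Ptgs1, 28.0 for Ptges, 34.6 for Ptgis, 3.67 for Hpgd, 6.82 for Ptger2, 26.1 for Ptger4, 2.97 for Alox5 and 391 CPM for Alox5ap. At day 7 they were 15.1 CPM for Ptgs2, 23.2 for Ptgs1, 4.33 for Ptges, 10.5 for Ptgis, 20.1 for Hpgd, 2.16 for Ptger2, 24.4 for Ptger4, 1.24 for Alox5 and 94.2 CPM for Alox5ap. The median counts per barcode were 4546 and 2879, and the cell types of these barcodes are not known.

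Ptger4 went in opposite directions in different labels. Its log2 ratio of day 7 to day 2 was 1.43 in M1 Macro., 1.39 in M2 Macro. (Cx3cr1_hi), 1.92 in M2 Macro. (Cx3cr1_lo), 2.30 in Monocyte (Inflammatory) and 1.88 in Monocyte (Patrolling), and -1.87 in Endothelial (Stem). With 1 library per day, the difference between these labels was not tested.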

How the results depend on the processing

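No paired analysis was possible because each day has 1 library and no replicate. Of 59 ratios of days, 59 stayed within their main intervals with SoupX values and with scaling without mitochondrial genes. Over all alternatives 280 values stayed within them, 15 moved out and 2 reversed; Ptger4 in T Cells, whose interval holds 0, went from 0.17 to -0.04 with stricter limits on cells. Ptgs1 over all labelled cells went from 1.24 to -0.11 when each cell was given equal weight. Alox5ap in T Cells went from -4.93 to 0.057 without the barcodes with basophil genes, an alternative added after seeing the data, and the count of members lower there from 3 to 0, since 3 members then had under 20 counts.

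Counts of members past 2-fold were small, so filters moved them. Those given here differ from the main count by over 1.5 times, and smaller changes, such as 3 to 2, are left out. With at least 100 counts, the members higher numbered 0 in Dendritic, Endothelial (Capillary), M2 Macro. (Cx3cr1_hi), Monocyte (Inflammatory) and Monocyte (Patrolling) and 1 in FAPs (Pro-remodeling) and M2 Macro. (Cx3cr1_lo), and those lower 1 in Dendritic and Monocyte (Inflammatory) and 0 in Endothelial (Stem), M2 Macro. (Cx3cr1_hi) and Smooth Muscle, since fewer members were measured. With at least 1 count, those lower were 1 in Endothelial (Capillary), 2 in Endothelial (Stem) and M2 Macro. (Cx3cr1_hi) and 5 in Monocyte (Patrolling), and those higher 1 in Endothelial (Stem) and T Cells and 2 in Smooth Muscle. SoupX values gave 1 higher in FAPs (Pro-remodeling) and 1 lower in Smooth Muscle, and the mean over cells 1 higher in FAPs (Pro-remodeling). A fold of 1.5 gave 5 lower in FAPs (Pro-remodeling) and 2 in M2 Macro. (Cx3cr1_hi). Beyond the filters and the fold, the cause was not tested. Without thinning, 82 of 90 detection shares moved. Intervals cover counting error only.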
